A study of Mus musculus with 6 samples.

Results

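The chromatin around 4 C-type lectin genes of alternatively activated macrophages, Mrc1, Clec10a, Mgl2 and Clec7a, was examined in ATAC-seq libraries of mouse bone marrow-derived macrophages (BMDMs). ATAC-seq uses a transposase that inserts sequencing adapters into open DNA, so the reads at a site measure its accessibility. The members were all sites of the deposited site table that lay inside 1 of 3 windows of the mm9 build, chosen by position alone: a 200 kb window for Mrc1 (sites within chr2:14106004-14298778), a 130 kb window for the neighbouring genes Clec10a and Mgl2 (chr11:69900950-70026660) and a 130 kb window for Clec7a (chr6:129352488-129468347). These windows held 170 of 578591 sites, with 81 at the Mrc1 locus, 39 at the Clec10a/Mgl2 locus and 50 at the Clec7a locus. Sites are numbered within each locus from its left end.

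All 6 libraries came from wild-type BMDMs (strain label C57BL/6, marrow of C57BL/6J mice) that had been differentiated in medium conditioned by L929 cells, which supplies macrophage growth factor. They formed 6 groups of 1 library each: Untreated, IL-4 (20 ng/ml for 24 hours), DMSO, DMSO + IL-4, LatA + IL-4 (latrunculin A at 1 μM, with IL-4 for 24 hours) and MCSF + IL-4 (MCSF, also called CSF1, at 100 ng/ml, with IL-4 for 24 hours). Latrunculin A sequesters actin monomers and was dissolved in DMSO, so the control of the latrunculin A library was DMSO + IL-4, and that of the MCSF library was IL-4. IL-4 against Untreated is called the IL-4 comparison without vehicle, and DMSO + IL-4 against DMSO that with vehicle. The study asked how IL-4 and 2 treatments that act on the macrophage cytoskeleton alter chromatin accessibility. No group had a replicate, so each ratio below compares 2 libraries and not 2 conditions. As vehicle and IL-4 were crossed in 4 libraries, edgeR's quasi-likelihood test was also run over all sites with vehicle, IL-4, latrunculin A and MCSF as terms. It rests on 1 residual degree of freedom, the libraries with latrunculin A and MCSF are taken to vary like the others, and it was chosen after the data were seen.

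IL-4 signals through STAT6 and drives macrophages toward alternative activation, a state linked to tissue repair, helminth infection and clearance of glycoproteins, and surface lectins are among its best known markers. Mrc1 encodes the mannose receptor CD206, an endocytic receptor for mannosylated ligands. Clec10a and Mgl2 encode the galactose-type lectins CD301a and CD301b, which bind terminal galactose and N-acetylgalactosamine, and Clec7a encodes Dectin-1, the β-glucan receptor that signals through Syk in recognition of fungi. In the mouse gene order, Mrc1 lies between Tmem236 and Slc39a12, Mgl2 and Clec10a lie side by side between Asgr2 and Slc16a11, and Clec7a lies between Clec1a and Olr1.

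The upstream sequences of the lectin genes are shown because STAT6, which IL-4 activates, binds a known motif that can be looked for in them. The 250 bases before the annotated start are printed for the 3 genes that matched the RefSeq promoter table of build GRCm38.p6, Mrc1 (chr2:14229164-14229413, plus strand), Mgl2 (chr11:70130107-70130356, plus strand) and Clec7a (chr6:129472786-129473035, minus strand, the more upstream of 2 annotated starts). Each runs 5′ to 3′, and capitals mark matches to the motifs named after them.
Mrc1: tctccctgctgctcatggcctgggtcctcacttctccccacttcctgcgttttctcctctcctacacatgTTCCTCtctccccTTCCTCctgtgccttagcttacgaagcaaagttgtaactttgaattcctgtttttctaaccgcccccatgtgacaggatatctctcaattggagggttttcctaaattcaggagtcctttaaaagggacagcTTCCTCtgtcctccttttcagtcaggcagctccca
Mgl2: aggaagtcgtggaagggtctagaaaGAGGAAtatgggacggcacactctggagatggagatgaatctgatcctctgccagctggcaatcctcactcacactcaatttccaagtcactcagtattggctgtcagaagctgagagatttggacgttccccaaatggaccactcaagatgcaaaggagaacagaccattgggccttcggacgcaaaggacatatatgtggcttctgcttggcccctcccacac
Clec7a: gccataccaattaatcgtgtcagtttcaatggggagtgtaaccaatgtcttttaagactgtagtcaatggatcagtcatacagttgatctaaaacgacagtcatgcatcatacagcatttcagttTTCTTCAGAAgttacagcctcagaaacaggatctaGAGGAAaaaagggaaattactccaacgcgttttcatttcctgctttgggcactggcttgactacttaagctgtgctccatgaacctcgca

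Both strands were searched for the STAT6 motif TTCNNNNGAA, the other STAT motif TTCNNNGAA, the C/EBP motif TTGCNNAA, the PU.1 motif GAGGAA, the AP-1 motif TGANTCA and the TATA box TATAAA. The Clec7a sequence held a STAT6 match whose first base lay at -125 relative to the start, and 5.85% of the 32851 promoters in the table held this motif. All 3 sequences held the PU.1 motif, found in 23.3% of promoters: Mrc1 carried it 3 times on the opposite strand, as TTCCTC with first bases at -180, -167 and -35, Mgl2 once at -225, and Clec7a once at -90. No other searched motif matched, where the other STAT motif was present in 7.02%, C/EBP in 9.56%, AP-1 in 6.75% and the TATA box in 12.4% of promoters. A match describes letters only. The site table is on mm9 and these sequences are on GRCm38.p6, so no site below was set on a promoter, exon or intron, and the macrophage identity of the libraries was not checked at marker genes.

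Between 12387332 and 19889902 reads fell in sites per library. Reads were scaled by the authors' library sizes to normalized reads, and a site was compared if its mean over the 6 libraries was at least 20 normalized reads, which stands for 16.2 to 27.0 reads. Of the 170 members, 72 were compared (40 at Mrc1, 12 at Clec10a/Mgl2 and 20 at Clec7a) and 98 were not. The sites nearest to the limit had means of 19.9 (Clec10a/Mgl2 site 8, left out) and 20.1 (Mrc1 site 47, kept). A compared site was called higher or lower when its log2 ratio, with 1 normalized read added, passed 1.5-fold, and the shares called among all 132057 compared sites are given as the background. Intervals are exact at 95% and hold counting error alone, because reads with no molecular identifier need not be independent molecules.

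A single site dominated the Mrc1 locus. Mrc1 site 51 (chr2:14235147-14235438, 292 bp) held 9068 reads in Untreated and 8952 in DMSO, the libraries without IL-4, and with IL-4 it held 5869 alone, 5146 with vehicle, 2511 with latrunculin A and 2404 with MCSF. These were 80.9%, 81.8%, 70.7%, 72.8%, 47.1% and 46.0% of all reads of the locus, and the site ranked 76 of all 578591 sites. Its peak had the highest fold enrichment of the locus in every library, from 55.0 to 65.7. Reads were aligned with several alignments reported per read, and whether this site draws reads from other sequence was not tested. Sums over the Mrc1 locus are therefore given with and without it.

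IL-4 was accompanied by higher accessibility at the Clec7a and Mrc1 loci. Summed over all 50 Clec7a sites, normalized reads numbered 708 in Untreated against 1387 in IL-4, which gave a ratio of 1.96 (1.80 to 2.13), and 865 and 1529 with vehicle, a ratio of 1.77 (1.62 to 1.92). Over the 80 Mrc1 sites other than site 51, the sums were 1587 and 2393, a ratio of 1.51 (1.42 to 1.60), and 1789 and 2385, a ratio of 1.33 (1.25 to 1.42). With site 51 the Mrc1 ratios lay on the other side of 1, at 0.983 (0.955 to 1.01) and 0.889 (0.862 to 0.916). At the Clec10a/Mgl2 locus the ratios were 1.23 (1.11 to 1.37) and 1.06 (0.953 to 1.18), and the second interval included 1. The 2 IL-4 comparisons share no library.

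**Figure D1:**
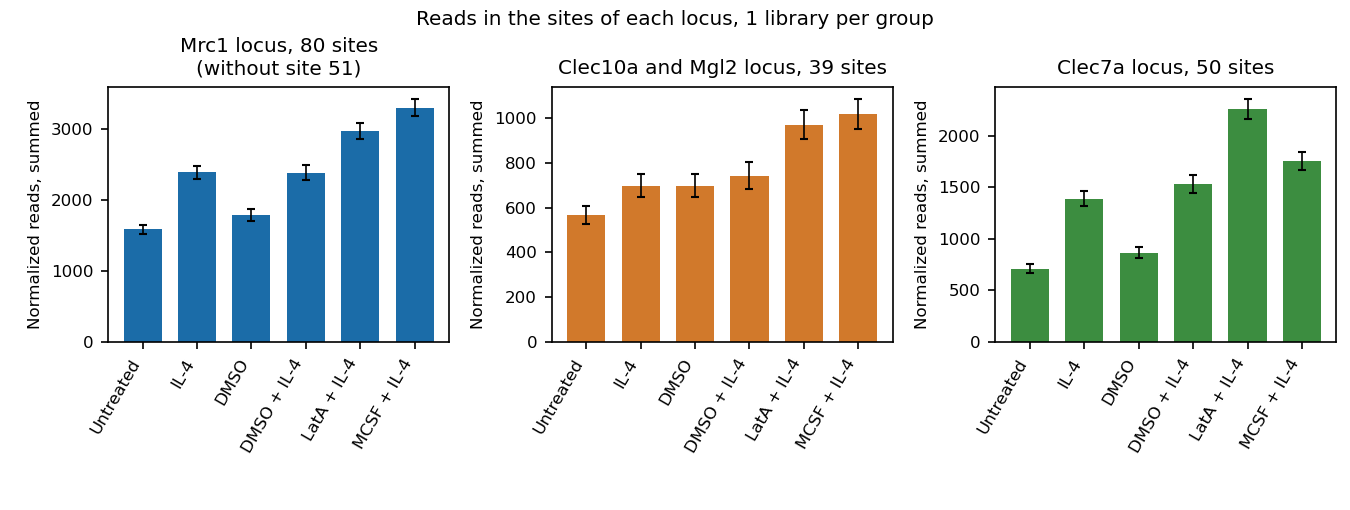
Normalized reads (y axis) summed over the sites of each locus in each library (x axis), 1 library per group, with the Mrc1 locus drawn without site 51. Bars start at 0 and error bars are exact 95% intervals for counting error. The IL-4 and DMSO + IL-4 bars stand above the Untreated and DMSO bars at Mrc1 and Clec7a, and the highest bar is MCSF + IL-4 at Mrc1 and Clec10a/Mgl2 but LatA + IL-4 at Clec7a.

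Counted site by site, 37 of the 72 compared members were higher and 2 lower in IL-4 than in Untreated, against a background of 20.8% higher and 8.88% lower. With vehicle, 27 were higher and 6 lower, against 16.6% and 12.8%. Higher in both comparisons were 24 of 72 members (33.3%), against 8.73% of all sites, and lower in both were 0, against 2.38%. These 24 were 13 of 40 sites at Mrc1, 2 of 12 at Clec10a/Mgl2 and 9 of 20 at Clec7a. The 2 Clec10a/Mgl2 sites were 16.7% of 12, a count too small to set against the background. Since 4 of the 6 libraries had IL-4, the limit on mean reads favours sites that are high with IL-4: 12 of the 24 had a mean under 20 in the 2 libraries without it, and so had 62.9% of all sites called in the same way. These 12 could be compared only through the libraries where they were high. With the limit set on the 2 libraries without IL-4, which leans the other way, 12 of 54 members (22.2%) were higher in both, against 3.29% of all sites, and 0 were lower, against 4.81%.

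In edgeR's quasi-likelihood test with Benjamini-Hochberg adjustment, 15 of 72 members rose with IL-4 at an adjusted p under 0.05, against 5.35% of all sites, and 0 fell, against 0.85% (0 of 72 also at an unadjusted p under 0.05). They were 8 of 40 sites at Mrc1, 1 of 12 at Clec10a/Mgl2 and 6 of 20 at Clec7a. Of the 15, 9 had a mean under 20 without IL-4 and entered the test only through the libraries where they were high, as did 57.2% of all sites that rose. Run on the sites that reached the limit without IL-4, the test called 4 of 54 members (7.41%) higher, against 1.72% of all sites, and 0 lower, against 0.770%. The 4 were Mrc1 sites 20 and 50 and Clec7a sites 36 and 49, with 14 higher at an unadjusted p under 0.05. Over the 72 members the lowest adjusted p-values belonged to Clec7a site 49 (adjusted p = 6.59e-06), Clec7a site 29 (2.72e-05), Mrc1 site 50 (5.72e-05) and Mrc1 site 35 (0.000219). Of these, Clec7a site 29 and Mrc1 site 35 passed the limit only through the IL-4 libraries, as did the Clec10a/Mgl2 site, site 9 (adjusted p = 0.00257), so no support is drawn from their p-values. The test reads the same libraries as the counts above and is no independent support.

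All 20 compared Clec7a sites had a log2 ratio above 0 in both IL-4 comparisons, where 34.1% of all compared sites did, and the lowest values were 0.18 and 0.05. Their median log2 ratios were 0.75 and 0.60, against 0.10 and 0.01 over all sites. Of the 20, 7 had reached the limit only through the libraries with IL-4. The 13 that reached it without IL-4 were also all above 0 in both, against 23.1% of all sites so limited, with medians of 0.62 and 0.52, against -0.03 and -0.12. At Mrc1 26 of 40 sites and at Clec10a/Mgl2 5 of 12 were above 0 in both, with medians of 0.53 and 0.26 at Mrc1 and 0.29 and 0.13 at Clec10a/Mgl2. Among the sites that reached the limit without IL-4, 17 of 29 at Mrc1 were above 0 in both, with medians of 0.43 and 0.14. At Clec10a/Mgl2 5 of 12 such sites were, with medians of 0.23 and 0.13. The higher values were not limited to sites of few reads, up to a mean of 1000. The 1 member above that, Mrc1 site 51, had -0.22 and -0.34, against 0.02 and -0.10 in all such sites. Among the 14 members with a mean of 50 to 100 normalized reads the median was 0.60 and 0.63, against 0.16 and 0.00 in all sites of that range, and among the 9 members from 100 to 1000 it was 0.46 and 0.25, against 0.12 and -0.10.

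**Figure D2:**
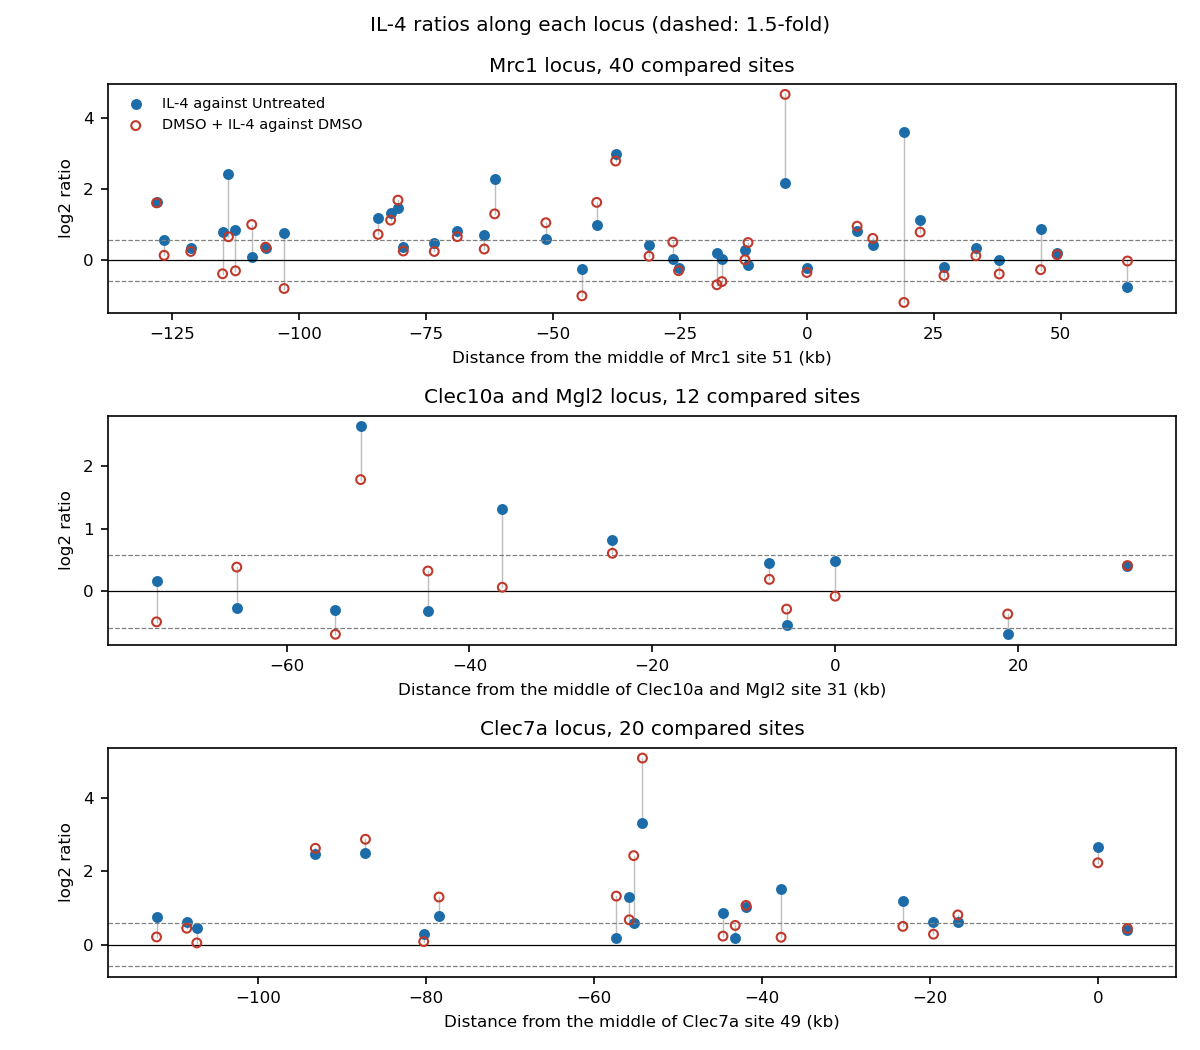
Log2 ratio of normalized reads (y axis) at each compared site, placed by its distance in kb from the middle of the site with the most reads in its locus (x axis). Filled points are the comparison without vehicle (IL-4 against Untreated), open points that with vehicle, grey lines join the values of 1 site, and dashed lines mark 1.5-fold. All 20 Clec7a sites lie above 0 in both comparisons, and at Mrc1 and Clec7a the sites past 1.5-fold in both are spread along the window.

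Clec7a site 49 (chr6:129463931-129465470) was the widest site of its locus at 1540 bp and had the most reads there. It held 38 reads in Untreated and 47 in DMSO, and with IL-4 it held 187 alone, 163 with vehicle, 237 with latrunculin A and 222 with MCSF. Both libraries without IL-4 thus held fewer reads than all 4 with IL-4, and how many of all sites showed this order was not counted. The ratio was 6.53 (4.59 to 9.51) without vehicle and 4.77 (3.43 to 6.74) with it. Its share of the locus' reads was 3.97% in Untreated and 4.89% in DMSO, and 13.2% with IL-4, alone or with vehicle.

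Clec7a site 29 (chr6:129410097-129410868, 772 bp) was close to empty without IL-4. It held 7 reads in Untreated and 1 in DMSO, against 61 with IL-4 alone, 51 with vehicle, 88 with latrunculin A and 43 with MCSF. The ratio was 11.6 (5.28 to 30.0) without vehicle, and with vehicle, where DMSO had 1 read, it was 70.1 with an interval that began at 12.0. The authors called a peak there in 3 libraries, all with IL-4 and none with MCSF, with fold enrichments from 2.87 to 2.99.

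Clec7a sites 7 and 10, 5.58 kb apart, were named for their IL-4 ratios. Both passed the limit only through the libraries with IL-4, so their likeness with IL-4 follows from the choice. Clec7a site 7 (chr6:129371295-129371786) held 7 and 34 reads without vehicle and 6 and 31 with it, with ratios of 6.44 (2.81 to 17.2) and 7.10 (2.92 to 20.8). Clec7a site 10 (chr6:129377362-129377648) held 6 and 30, and 3 and 21, with ratios of 6.63 (2.72 to 19.5) and 9.62 (2.87 to 50.4). At both, neither library without IL-4 had a called peak, and both libraries with IL-4 and no further treatment had one. Clec7a site 36 (chr6:129422538-129423080) started from a higher level, with 50 and 46 reads without IL-4, 77 and 71 with it, and ratios of 2.04 (1.41 to 2.98) and 2.12 (1.44 to 3.14). By contrast, Clec7a sites 11 and 3, which were among the 5 with the most reads, gave IL-4 log2 ratios of 0.30 and 0.08, and of 0.46 and 0.05, within 1.5-fold.

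Among the 13 Mrc1 sites past the threshold in both IL-4 comparisons, sites 35, 50 and 2 came first when ordered by the smaller of their 2 log2 ratios. Mrc1 site 35 (chr2:14197473-14197789, 317 bp) held 5 reads in each library without IL-4, and with it 37 alone, 30 with vehicle, 36 with latrunculin A and 57 with MCSF. It was chosen for its IL-4 ratios and passed the limit only through the libraries with IL-4, so its values are a description. The ratios were 9.82 (3.85 to 32.0) and 8.25 (3.17 to 27.2). A peak was called there in all 4 libraries with IL-4 and in neither without. Mrc1 site 2 (chr2:14107034-14107423) followed the same order at lower ratios, with 13 and 10 reads without IL-4, 33, 24, 28 and 37 in the same order with it, and ratios of 3.37 (1.73 to 6.97) and 3.30 (1.52 to 7.73).

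Mrc1 site 50 (chr2:14230825-14231189, 365 bp) lay 3.96 kb from site 51. It held 68 reads in Untreated and 7 in DMSO, and with IL-4 it held 235 alone, 149 with vehicle, 155 with latrunculin A and 270 with MCSF. The IL-4 ratio was 4.58 (3.49 to 6.10) without vehicle and 29.3 (13.9 to 74.0) with it. The larger ratio went with the low DMSO library, whose log2 ratio to Untreated was -2.81. Despite these reads, a peak was called there only with latrunculin A and with MCSF, with fold enrichments of 1.49 and 2.81. Mrc1 site 20 (chr2:14153040-14153619) was better balanced between the comparisons, with 39 and 32 reads without IL-4, 76 and 52 with it, and ratios of 2.59 (1.74 to 3.91) and 2.23 (1.41 to 3.59).

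The Mrc1 sites with the most reads after site 51 varied less with IL-4, other than site 50. Mrc1 site 6 (chr2:14113666-14114259) gave ratios of 1.28 (0.976 to 1.68) and 1.19 (0.916 to 1.55), and Mrc1 site 13 (chr2:14128435-14128960) gave 1.29 (0.958 to 1.73) and 1.30 (0.954 to 1.77). Mrc1 site 27 (chr2:14171370-14172149) gave 1.64 (1.33 to 2.03) and 1.25 (1.01 to 1.55). The widest Mrc1 site, site 44 (chr2:14217032-14218128, 1097 bp), gave 1.15 (0.845 to 1.55) and 0.617 (0.402 to 0.930), with 96 and 78 reads without IL-4 and 83 and 35 with it. The intervals of sites 6 and 13 included 1 in both comparisons.

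The Clec10a/Mgl2 locus held 2 sites past the threshold in both IL-4 comparisons. Clec10a/Mgl2 site 9 (chr11:69927893-69928425, 533 bp) held 4 reads in Untreated and 10 in DMSO, and with IL-4 it held 24 alone, 27 with vehicle, 66 with latrunculin A and 67 with MCSF. The IL-4 ratios were 7.96 (2.73 to 31.6) and 3.71 (1.74 to 8.59), and a peak was called in the 4 libraries with IL-4 and in neither without. The second such site, Clec10a/Mgl2 site 22 (chr11:69955399-69955990), gave smaller ratios of 1.80 (1.08 to 3.05) and 1.54 (0.993 to 2.39). The site with the most reads, Clec10a/Mgl2 site 31 (chr11:69979678-69980446), held 85 and 100 reads without IL-4 and 90 and 69 with it, with ratios of 1.40 (1.03 to 1.91) and 0.948 (0.688 to 1.30). The widest site, Clec10a/Mgl2 site 12 (chr11:69934775-69936264, 1490 bp), gave 0.803 (0.544 to 1.17) and 1.26 (0.853 to 1.85). Mgl2 and Clec10a are related in sequence: of the 38-base stretches of the Mgl2 gene in GRCm38, which is the read length, 10.6% occurred unchanged in the Clec10a gene, and 18.5% the other way. Whether reads were shared between the genes was not tested.

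**Figure D3:**
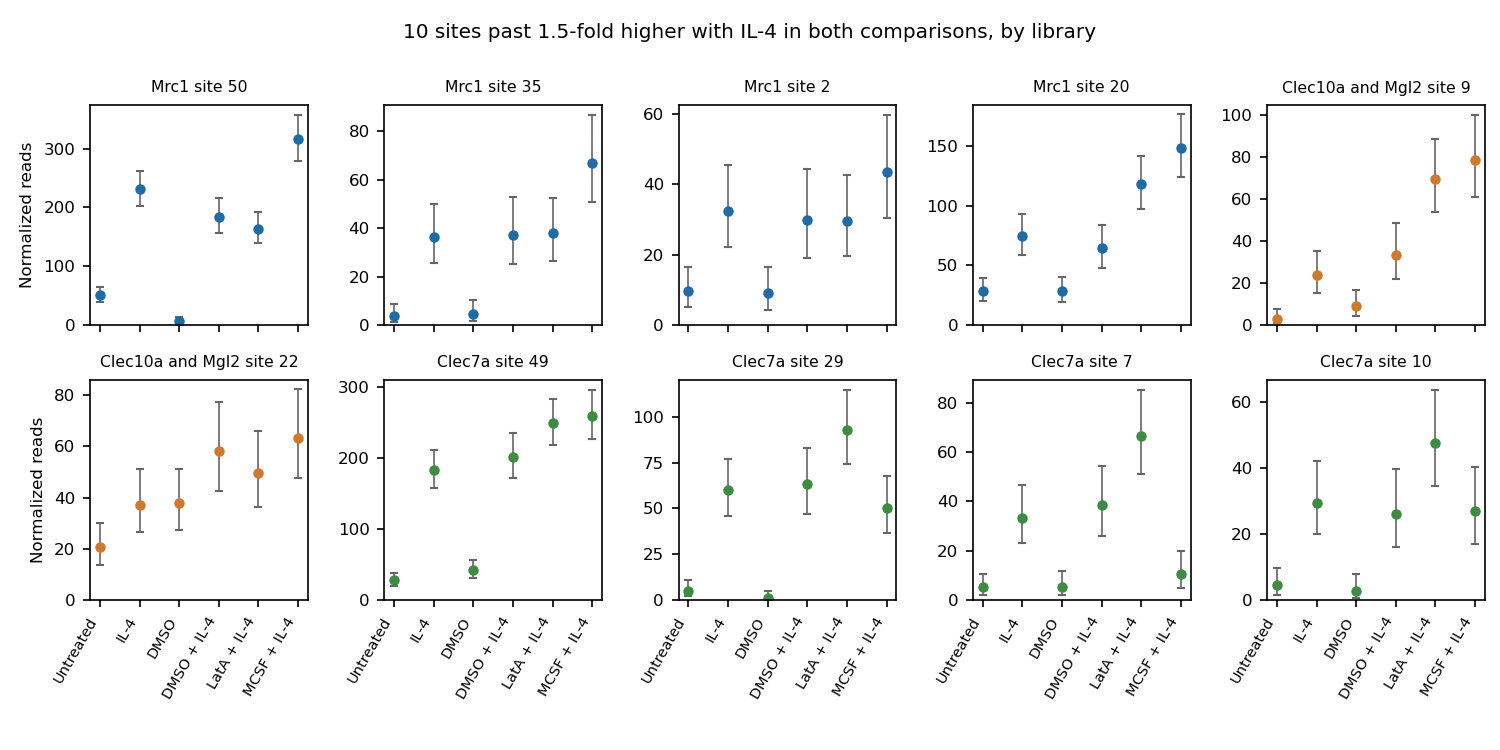
Normalized reads (y axis, from 0) in each library (x axis) at 10 sites called higher in both IL-4 comparisons, coloured by locus. Error bars are exact 95% intervals for counting error. Every library with IL-4 stands above both without it at 9 of the 10 sites, the exception being Clec10a/Mgl2 site 22, where DMSO (37.8) and IL-4 (37.3) lie side by side. The sites were chosen for higher reads with IL-4, so this order largely follows from the choice. Mrc1 sites 2 and 35, Clec10a/Mgl2 site 9 and Clec7a sites 7, 10 and 29 were compared only through the libraries with IL-4. At Clec7a site 7 the interval of MCSF + IL-4 overlaps those of Untreated and DMSO.

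The 9 Clec7a sites higher in both comparisons took 23.1% (20.5 to 25.9) of the locus' reads in Untreated and 38.3% (35.7 to 40.9) in IL-4, and with vehicle 20.6% (18.1 to 23.3) and 39.4% (36.6 to 42.1). For the 13 Mrc1 sites, with site 51 left out, the shares were 15.7% (14.2 to 17.3) and 29.9% (28.1 to 31.8), and 12.9% (11.5 to 14.5) and 29.2% (27.1 to 31.3). These values describe sites chosen for higher reads in the same libraries. In the latrunculin A and MCSF libraries the shares were 37.7% and 39.6% at Clec7a and 29.4% and 35.2% at Mrc1. Low values in Untreated and DMSO helped to choose the sites, so nothing is read from how these shares stand to theirs.

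Fewer members passed the threshold between libraries that differed in the vehicle alone. DMSO was compared with Untreated, and DMSO + IL-4 with IL-4. In the first, 16 of 72 compared members were higher and 5 lower, against 16.8% and 7.24% of all sites. In the second, 5 were higher and 5 lower, against 11.2% and 9.8%. These comparisons share libraries with those of IL-4. Summed over the locus, Clec7a gave 1.22 (1.12 to 1.34) in the first and 1.10 (1.02 to 1.19) in the second, and Mrc1 without site 51 gave 1.13 (1.06 to 1.20) and 0.997 (0.938 to 1.06). Both Clec7a ratios were smaller than those of IL-4.

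The latrunculin A and MCSF libraries were next set against their controls to describe how the lectin loci stood when the cytoskeleton was perturbed. These 2 comparisons share no library with each other, but each shares its control with an IL-4 comparison. Normalized reads at Clec7a were 1.48 times (1.38 to 1.59) as many with latrunculin A and 1.27 times (1.18 to 1.36) as many with MCSF as in the control. At Clec10a/Mgl2 the ratios were 1.31 (1.18 to 1.45) and 1.46 (1.32 to 1.61), and at Mrc1 without site 51 they were 1.25 (1.18 to 1.32) and 1.38 (1.31 to 1.46). With site 51 the Mrc1 ratios were 0.642 (0.620 to 0.666) and 0.751 (0.725 to 0.778). No locus sum was lower in either treatment unless site 51 was included. Well-read sites stood higher in general. Over all sites the median log2 ratios with latrunculin A and MCSF were 0.49 and 0.48 at a mean of 50 to 100 normalized reads. They were 0.57 and 0.60 at 100 to 1000, but 0.04 and 0.01 at 20 to 50.

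Site 51 itself had log2 ratios of -1.27 with latrunculin A and -1.03 with MCSF. Of the 295 sites whose mean reached 1000 normalized reads, 34 (11.5%) were also past 1.5-fold lower in both, and the medians of these 295 sites were 0.04 and 0.19. With IL-4 alone the site gave ratios of 0.859 (0.831 to 0.887) and 0.790 (0.763 to 0.818).

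Site by site, 31 of 72 compared members were higher and 8 lower with latrunculin A, against a background of 30.1% and 15.7%. With MCSF, 26 were higher and 10 lower, against 29.2% and 14.9%. Higher in both were 15 of 72 members (20.8%), against 15.4% of all sites, and lower in both were 3, against 4.36%. The share past 1.5-fold lay nearer to the background here than with IL-4. In edgeR's quasi-likelihood test, 0 members rose and 1 fell with latrunculin A at an adjusted p under 0.05, against 1.54% and 0.56% of all sites, with 17 and 3 at an unadjusted p under 0.05. With MCSF 10 rose and 1 fell, against 8.45% and 1%. The member that fell was Mrc1 site 51 in both (adjusted p = 0.00547 and 0.0131), and the lowest adjusted p among those that rose with MCSF was that of Mrc1 site 14 (0.0032). Among the 48 members with a mean of 20 to 50 normalized reads the median log2 ratios with latrunculin A and MCSF were 0.30 and 0.14, against 0.04 and 0.01 in all sites of that range. From 50 to 100 they were 0.73 and 0.87, against 0.49 and 0.48, and from 100 to 1000 they were 0.65 and 0.50, against 0.57 and 0.60. With the trend of the ratio with mean reads removed, 16 of 72 members were higher with latrunculin A and 18 with MCSF, against 19.2% and 19.5% of all sites treated the same way. Higher in both were then 6 (8.33%), against 7.89%, as the counts higher in both went from 7 to 3 at Mrc1, 4 to 2 at Clec10a/Mgl2 and 4 to 1 at Clec7a.

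**Figure D4:**
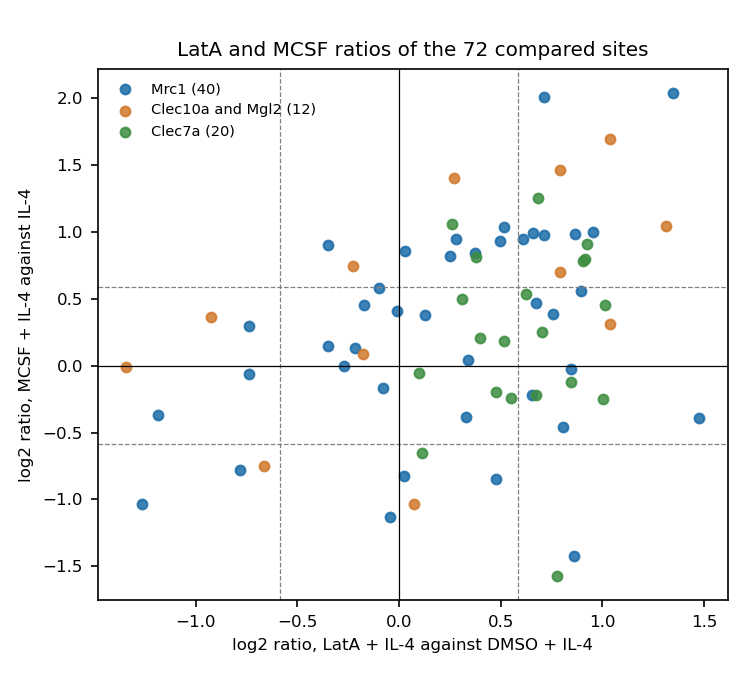
Log2 ratio of normalized reads at each of the 72 compared sites with latrunculin A (x axis) and with MCSF (y axis), each against its control, coloured by locus, with dashed lines at 1.5-fold. All 20 Clec7a points lie right of 0 on the latrunculin A axis and on both sides of 0 on the MCSF axis, 12 above and 8 below.

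All 20 compared Clec7a sites had a log2 ratio above 0 with latrunculin A, from 0.10 to 1.01 with a median of 0.65, where 59.7% of all sites were above 0 and their median was 0.20. With MCSF 12 of 20 were above 0, from -1.57 to 1.25 with a median of 0.23, against 0.16 over all sites. Higher past 1.5-fold were 11 sites with latrunculin A (55.0%, against 30.1% of all sites) and 6 with MCSF (30.0%, against 29.2%), and lower were 0 (against 15.7%) and 2 (10.0%, against 14.9%). Of the 20 sites, 13 reached the limit without IL-4. The others reached it only through the libraries with IL-4, LatA + IL-4 among them, and were not counted apart here. Whether the treatments differed at this locus was not tested.

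Clec7a site 7 gave opposite values. Latrunculin A had 63 reads against 31 in its control, a ratio of 1.73 (1.11 to 2.75), but MCSF had 9 against 34, a ratio of 0.316 (0.133 to 0.672). In normalized reads, the site stood at 10.5 in the MCSF library, 5.18 in Untreated, 5.40 in DMSO and 33.4 in IL-4, and no peak was called there with MCSF. It was chosen for its IL-4 ratios, and the IL-4 library is also the control of MCSF, so no reversal is read from these values. How many of all sites gave opposite values in the treatments was not counted. Its neighbour site 10 held 45 reads with latrunculin A and 23 with MCSF, ratios of 1.83 (1.07 to 3.23) and 0.915 (0.508 to 1.63).

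The sites that were higher with IL-4 were next read in the treatments, beside all 11528 sites of the table that passed the same IL-4 threshold. Of the 24 sites past 1.5-fold in both IL-4 comparisons, 9 were higher, 15 neither and 0 lower with latrunculin A, and 12 were higher, 10 neither and 2 lower with MCSF. Of the 11528 sites, latrunculin A had 28.7% higher and 10.7% lower, and MCSF 47.8% and 9.80%, so the counts with MCSF lay near these shares. The 2 lower sites were at Clec7a, site 7 and site 27 (chr6:129408650-129409179), whose log2 ratio with MCSF was -0.65. Clec7a site 49 gave 1.24 (1.01 to 1.52) and 1.42 (1.16 to 1.73), and Clec7a site 29 gave 1.47 (1.03 to 2.12) and 0.841 (0.556 to 1.26). Mrc1 site 35 gave 1.02 (0.612 to 1.72) and 1.84 (1.19 to 2.86), Mrc1 site 50 gave 0.886 (0.703 to 1.12) and 1.37 (1.15 to 1.64), and Mrc1 site 2 gave 0.994 (0.556 to 1.79) and 1.34 (0.814 to 2.21). These sites were chosen with the control libraries of both ratios, so their counts are a description.

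Some sites had more reads in both treatments than with IL-4 alone. Mrc1 site 14 (chr2:14131981-14132713) held 82 reads with latrunculin A against 27 in its control, a ratio of 2.59 (1.66 to 4.16), and 130 with MCSF against 37, a ratio of 4.19 (2.89 to 6.22). Mrc1 site 20 gave 1.84 (1.31 to 2.60) and 1.99 (1.49 to 2.69), and Mrc1 site 22 (chr2:14155692-14155947) gave 1.98 (1.18 to 3.42) and 2.05 (1.16 to 3.69). At Clec10a/Mgl2, site 9 gave 2.08 (1.31 to 3.39) and 3.33 (2.06 to 5.55), so that the 4 libraries with IL-4 stood at 2 levels. Clec10a/Mgl2 site 16 (chr11:69943253-69944058) held 86 against 29 and 65 against 37 reads, with ratios of 2.53 (1.64 to 3.99) and 2.10 (1.38 to 3.23). Clec10a/Mgl2 site 37 (chr11:70011781-70012273) gave 1.75 (1.18 to 2.63) and 2.79 (1.97 to 4.02), and site 31, the site with the most reads, gave 1.74 (1.30 to 2.36) and 1.63 (1.23 to 2.16). At Clec7a, site 11 (chr6:129384208-129384668) gave 1.91 (1.47 to 2.50) and 1.89 (1.45 to 2.48), site 36 gave 1.90 (1.42 to 2.55) and 1.75 (1.30 to 2.37), and site 37 (chr6:129426815-129427161) gave 1.92 (1.04 to 3.70) and 1.76 (0.948 to 3.33). All intervals but that of site 37 with MCSF lay above 1, which largely follows from the choice of sites past 1.5-fold higher in both treatments. Higher in both were 20.8% of the compared members, against 15.4% of all sites. With the trend with mean reads removed these were 8.33% and 7.89%.

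Lower with both treatments were 3 of 72 members (4.17%), near the 4.36% of all sites. Mrc1 site 42 (chr2:14208535-14209271) held 29 reads with latrunculin A against 43 in its control, a ratio of 0.575 (0.346 to 0.942), and 23 with MCSF against 48, a ratio of 0.572 (0.332 to 0.959). Clec10a/Mgl2 site 29 (chr11:69972340-69973398) gave 0.625 (0.386 to 1.00) and 0.587 (0.366 to 0.923). Mrc1 site 27 differed between the agents, with 1.02 (0.826 to 1.25) for latrunculin A and 0.562 (0.436 to 0.719) for MCSF. Clec7a site 42 (chr6:129444937-129445336) was the other way round, with 2.02 (1.43 to 2.90) and 0.839 (0.560 to 1.25), and site 3 (chr6:129356988-129357862) gave 1.63 (1.31 to 2.05) and 1.19 (0.926 to 1.54). At Clec10a/Mgl2 site 3 (chr11:69905537-69906144) the ratios were 2.08 (1.36 to 3.24) and 1.25 (0.814 to 1.91), and at site 12 both intervals included 1.

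The authors' peaks gave a second view that does not use the site table, but they were called on the same 6 libraries and are no independent support. Peaks in the Clec7a window numbered 19 in Untreated and 20 in DMSO, and with IL-4 they numbered 25 alone, 26 with vehicle, 30 with latrunculin A and 22 with MCSF. In the Mrc1 window, in the same order, they numbered 37, 41, 48, 44, 46 and 45, and in the Clec10a/Mgl2 window 17, 18, 16, 18, 25 and 17. The libraries with IL-4 thus had more peaks than those without at Clec7a and Mrc1, although Untreated had the most peaks over the genome, 269643 against 222076 to 232676 in the others. Of the IL-4 peaks, 62.5% at Mrc1, 68.8% at Clec10a/Mgl2 and 56.0% at Clec7a overlapped an Untreated peak, against 61.0% over the genome. With vehicle 63.6%, 61.1% and 53.8% overlapped a DMSO peak, against 55.0%, while 77.3%, 77.8% and 80.8% (60.6 to 93.4) of the same peaks overlapped a peak of the IL-4 library, against 57.0%. The last share was the highest at all 3 loci, but at each its interval overlapped those of the others (26 peaks at Clec7a). Between the libraries without IL-4, 75.6%, 61.1% and 70.0% of the DMSO peaks overlapped an Untreated peak, against 63.0% over the genome. A peak was called in all 6 libraries at 18 of 40 compared Mrc1 sites, 6 of 12 at Clec10a/Mgl2 and 11 of 20 at Clec7a. The share over all compared sites was not counted, so nothing is read from these counts.

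Across the 6 libraries, the member site most like Clec7a site 49 in log2 normalized reads was Mrc1 site 35, on another chromosome (Pearson's r = 0.99, 6 libraries), and the most like it within the locus was Clec7a site 10 (r = 0.95). Clec10a/Mgl2 site 31 was most like site 16 of its locus (r = 0.98) and Clec7a site 11 (r = 0.98). Mrc1 site 51 was most like Mrc1 site 43 (r = 0.84) and Clec10a/Mgl2 site 29 (r = 0.78). The points share the libraries, their depth and their scaling, and each partner was the best of many, so these values only describe the pattern.

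The 98 members under the limit held few reads. At Clec7a the 30 such sites held 226 reads in Untreated and 217 in DMSO in all, and with IL-4 they held 315 alone, 274 with vehicle, 393 with latrunculin A and 274 with MCSF, and no single site held more than 33. In normalized reads the same sums were 167, 195, 309, 339, 414 and 321, higher in every library with IL-4 than in either without. At Mrc1 the 41 sites summed to 343, 335, 384, 437, 491 and 609 normalized reads, and at Clec10a/Mgl2 the 27 sites summed to 174, 207, 232, 213, 275 and 281.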

How the data were processed

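ATAC-seq reads of 38 bases, in pairs, were processed by the authors with Cutadapt, Bowtie2 (several alignments reported per read, mm9), Picard, bedtools, MACS2 and featureCounts. Versions are not given in the sources used here. The deposited site table gives a signal that the authors made by scaling reads per site to CPM with TMM factors in edgeR. Whole reads were recovered from its steps for 100% of values, within 0.01 of a read. The deposited peak lists give a fold enrichment over local background, a ratio used to describe peaks, and a −log10 q-value used as a stricter threshold.

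Normalized reads are reads divided by the authors' effective library size, times the geometric mean of these sizes. No count test was planned, since each group had 1 library. edgeR 4.0.16 (glmQLFit, glmQLFTest) was added after the data were seen, on the recovered reads of the 132057 compared sites and the authors' effective library sizes, with Benjamini-Hochberg adjustment. Ratios carry exact intervals conditional on the summed reads (scipy 1.17.1, pandas 2.3.3, numpy 2.4.6, Python 3.11.15), and the code was tested on simulated data. DESeq2 1.42.0 in R 4.3.3 gave alternative size factors only. Between 12387332 and 19889902 reads per library set the precision.

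Named in the text are, per locus, the 5 sites with the most reads, up to 3 sites each higher or lower in both IL-4 comparisons and with both treatments, the widest site and the most similar sites. Others are named where a count required it. The windows, members, motifs and rules were chosen with earlier results of these data known. The last site on chromosome 1 ends at 197195351, past the last protein-coding gene of GRCm38 at 195176880, so no mm9 position was placed on that annotation and none was converted. Alternatives were other scalings, filters, thresholds, added reads, control libraries and removal of the trend with mean reads.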

Additional observations from a re-analysis of the deposited data

Results flagged for a closer look

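Mrc1 sites 14 and 56 moved past 1.5-fold in opposite directions in the 2 IL-4 comparisons. The difference was not tested, since it would leave no residual degrees of freedom. At Mrc1 site 14 the log2 ratio was 0.78 in IL-4 against Untreated (28 and 37 reads) and -0.79 with vehicle (65 reads in DMSO and 27 with IL-4), a difference of -1.57.

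At Mrc1 site 56 (chr2:14254172-14254648), named for this difference after its values were seen, the log2 ratios were 3.60 and -1.18, a difference of -4.78. It held 6 reads in Untreated and 17 in DMSO, and with IL-4 it held 66 alone, 5 with vehicle, 18 with latrunculin A and 42 with MCSF. Peaks were called there in 3 of the 6 libraries, DMSO, IL-4 and MCSF + IL-4. Of all 132057 compared sites, 3306 (2.50%) moved in opposite directions in this way.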

How the results depend on the processing

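The sum over the Mrc1 locus reversed when site 51 was left out, from 0.983 to 1.51 and from 0.889 to 1.33 with IL-4, from 0.642 to 1.25 with latrunculin A and from 0.751 to 1.38 with MCSF. Without its own strongest site, Clec7a gave 1.77 and 1.61 with IL-4. Scaling by total reads in sites gave 0.930 (DMSO + IL-4) and 0.715 (MCSF) at Mrc1. Scaling by reads outside sites with a mean of at least 1000 gave, for latrunculin A and MCSF, 0.560 and 0.651 at Mrc1, 1.14 and 1.26 at Clec10a/Mgl2 and 1.29 and 1.10 at Clec7a, and 0.929 for IL-4 at Mrc1. The sum over compared sites gave 0.617 and 0.710 at Mrc1, and crossed controls gave 0.690 and 0.700 at Mrc1 and 1.63 and 1.15 at Clec7a. Of 78 alternative locus sums, 57 stayed within the interval of the reported ratio.

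Counts of sites past the threshold depended most on the limits. At 2-fold, the sites higher with IL-4 in both comparisons numbered 6 at Mrc1, 1 at Clec10a/Mgl2 and 5 at Clec7a, those higher with both treatments 1, 2 and 0, and those lower with both 1 at Mrc1 and 0 at Clec10a/Mgl2. Over all members these were 16.7%, 4.17% and 1.39%, against 3.93%, 2.86% and 0.809% of all sites at 2-fold. In single comparisons at 2-fold, 20 were higher and 0 lower with IL-4, against 9.32% and 2.39% of all sites. With DMSO + IL-4 they were 18 and 1, against 7.21% and 3.73%. Latrunculin A gave 7 and 3, against 11.5% and 5.77%, and MCSF 9 and 5, against 11.8% and 5.08%. At a mean of at least 50, 5, 0 and 3 were higher with IL-4 in both, 2 at Clec10a/Mgl2 were higher with both treatments, and 1 and 0 were lower at Mrc1 and Clec10a/Mgl2. Over the 24 members left, 33.3% were higher with IL-4 in both, against 10.3%, and 41.7% higher and 4.17% lower with both treatments, against 27.5% and 1.80%. The single counts, higher and lower with IL-4, DMSO + IL-4, latrunculin A and MCSF, were then 11 and 0, 9 and 2, 15 and 1, and 13 and 2 of 24, against 21.9% and 5.40%, 13.6% and 10.1%, 44.7% and 6.04%, and 46.0% and 5.65%. With no filter, 7 (Clec10a/Mgl2) and 21 (Clec7a) were higher and 2 and 1 lower with IL-4 in both, and 15, 10 and 8 higher and 5, 2 and 3 lower with both treatments at Mrc1, Clec10a/Mgl2 and Clec7a. Over all 170 members these were 26.5% and 1.76% with IL-4, against 8.66% and 6.87%, and 19.4% and 5.88% with both treatments, against 10.8% and 9.74%. In the same order, the single counts were then 76 and 17, 65 and 30, 76 and 27, and 60 and 36 of 170, against 24.6% and 22.4%, 24.9% and 24.1%, 27.5% and 28.0%, and 27.5% and 27.1%.

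With 5 reads added, 1 Clec10a/Mgl2 site was higher with IL-4 in both (19 members in all, 26.4%, against 7.37%) and 1 member was lower with IL-4 (6.72% of all sites). Scaling outside the largest sites left 3 (Mrc1) and 2 (Clec7a) sites higher with both treatments (8 of 71 in all, 11.3%, against 7.39%) and 19 members higher with latrunculin A (26.8%, against 19.9%). Removing the trend left 3, 2 and 1, and 16 (22.2%, against 19.2%). At 50% overlap of each peak, 43.2% of the Mrc1 peaks of DMSO + IL-4 were shared with DMSO. At Mrc1 site 44 the latrunculin A log2 ratio of 0.76 became -0.14 against the IL-4 library. Of 68 named-site ratios past 1.5-fold, 68 stayed past it with total reads, 67 with DESeq2 size factors, 66 with 5 reads added, 60 with the scaling outside the largest sites and 51 with the trend removed, and none of these changed direction. Except where values are given, the cause was not tested.

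Chosen after seeing the data, the edgeR quasi-likelihood test called 8 sites at Mrc1, 1 at Clec10a/Mgl2 and 6 at Clec7a higher with IL-4. This was 20.8% of the 72 members, against 5.35% of all sites. Its counts with latrunculin A and MCSF stand above beside their shares of all sites. The limit set on the 2 libraries without IL-4 left 6, 1 and 5 sites higher with IL-4 in both (22.2% of 54 members, against 3.29% of all sites). With both choices together, 2, 0 and 2 sites were called higher (7.41% of 54 members, against 1.72% of all sites).

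Leaving out each library in turn was not run, since each group had 1. The labels give no replicate numbers shared between groups, so the pairing was by vehicle, as a term of the edgeR test. A site of 20 reads cannot show a change much under 2-fold beyond counting error, and biological spread was not measured.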
